A study of Drosophila melanogaster with 3 samples.

Results

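This account covers the peaks of CG17385 that lay between genes but close to a start site of a protein-coding gene. CG17385 was profiled by chromatin immunoprecipitation sequencing (ChIP-seq), which maps where a protein is bound along the genome. The material was whole Drosophila melanogaster embryos of a 0 to 24 h collection, mixed in sex, from a transgenic line in which GFP is fused to the C terminus of CG17385. There was 1 group of 3 biological replicates, each listed under a separate biosample of the same line, and every animal carried the fusion, so that no untagged or otherwise treated group was compared. Embryos of all ages in the collection and all their tissues were pooled, and the labels used here do not name the promoter that drives the fusion. The peaks were those that passed the authors' irreproducible discovery rate (IDR) step, which keeps peaks that rank alike in replicates. Those with a summit inside no annotated gene, and more than 500 but at most 5000 bp from the nearest protein-coding start site, were taken, and they are called near-intergenic peaks here. They numbered 592 of the 7588 IDR peaks (7.80%), and none was left out by a filter. The labels conflict on whether the samples are input controls (a free-text line) or ChIP against CG17385 (assay and antibody), and the lists were treated as ChIP.

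Most enhancers of the compact fly genome lie in introns or in the stretches between genes, often within a few kilobases of the start sites they act on. Such distal elements are bound by sequence-specific factors, and a peak in a ChIP of a transcription factor can stem from direct binding or from contact with other bound proteins. Insulator proteins and Polycomb group proteins also occupy intergenic sites in the fly embryo. Which gene a distal element acts on cannot be read from its position, so the nearest protein-coding gene serves below as an address only.

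The sequences under the summits varied widely, from runs of purine repeats to stretches with no recurrent word. Shown are the bases from 100 bp before to 100 bp after the summit, 5′ to 3′ on the plus strand of dm6, taken from the RefSeq copy of the Release 6 assembly. Capitals mark the words of 8 bases, on either strand, that were most enriched at the summits of other IDR peaks, as described below. The set holds 6 of the strongest near-intergenic peaks, 4 strong ones with a purine-rich word near the summit, which were added after the values were seen, and 2 of the weakest ones, which were outside the strongest 7588 peaks of every replicate. The name is that of the nearest protein-coding gene.
CG17544, chr2L:19398904-19399104: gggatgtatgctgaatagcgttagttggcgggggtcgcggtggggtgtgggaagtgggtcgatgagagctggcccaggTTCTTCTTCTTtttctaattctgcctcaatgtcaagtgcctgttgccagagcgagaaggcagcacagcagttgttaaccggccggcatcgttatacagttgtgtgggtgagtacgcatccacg
jp, chr2L:9567412-9567612: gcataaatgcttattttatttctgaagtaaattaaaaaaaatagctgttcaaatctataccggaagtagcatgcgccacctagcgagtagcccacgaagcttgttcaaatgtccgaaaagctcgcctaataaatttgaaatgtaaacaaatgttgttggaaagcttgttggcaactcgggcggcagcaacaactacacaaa
tara, chr3R:16222402-16222602: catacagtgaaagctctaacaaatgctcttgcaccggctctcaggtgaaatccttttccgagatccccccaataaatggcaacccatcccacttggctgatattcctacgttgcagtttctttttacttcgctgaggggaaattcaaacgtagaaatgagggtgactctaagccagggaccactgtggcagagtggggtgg
tara, chr3R:16224413-16224613: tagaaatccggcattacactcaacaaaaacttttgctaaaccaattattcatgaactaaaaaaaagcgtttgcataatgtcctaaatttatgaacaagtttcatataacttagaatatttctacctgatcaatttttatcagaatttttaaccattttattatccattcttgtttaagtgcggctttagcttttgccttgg
CG31668, chr2L:2202284-2202484: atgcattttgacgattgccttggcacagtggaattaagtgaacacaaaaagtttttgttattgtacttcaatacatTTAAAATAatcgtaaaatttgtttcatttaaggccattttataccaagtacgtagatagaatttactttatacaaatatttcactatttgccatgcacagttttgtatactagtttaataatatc
sp3, chr3R:21520279-21520479: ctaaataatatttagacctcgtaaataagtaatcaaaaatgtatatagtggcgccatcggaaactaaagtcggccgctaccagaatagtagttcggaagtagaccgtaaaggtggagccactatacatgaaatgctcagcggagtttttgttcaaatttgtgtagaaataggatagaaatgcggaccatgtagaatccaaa
Rh5, chr2L:12010469-12010669: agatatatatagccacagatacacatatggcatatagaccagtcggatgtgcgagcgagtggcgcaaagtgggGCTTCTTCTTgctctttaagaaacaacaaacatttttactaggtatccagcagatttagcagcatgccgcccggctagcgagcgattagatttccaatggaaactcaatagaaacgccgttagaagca
CG11629, chr2L:21899528-21899728: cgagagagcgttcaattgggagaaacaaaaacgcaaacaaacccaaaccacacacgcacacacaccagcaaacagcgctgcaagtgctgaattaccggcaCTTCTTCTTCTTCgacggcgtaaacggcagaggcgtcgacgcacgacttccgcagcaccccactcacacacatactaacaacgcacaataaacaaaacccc
zld, chrX:19788192-19788392: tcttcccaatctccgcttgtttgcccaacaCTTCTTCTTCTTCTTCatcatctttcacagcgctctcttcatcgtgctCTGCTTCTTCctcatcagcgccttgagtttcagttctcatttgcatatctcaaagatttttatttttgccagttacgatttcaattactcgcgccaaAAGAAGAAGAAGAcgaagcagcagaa
Hex-A, chrX:9583811-9584011: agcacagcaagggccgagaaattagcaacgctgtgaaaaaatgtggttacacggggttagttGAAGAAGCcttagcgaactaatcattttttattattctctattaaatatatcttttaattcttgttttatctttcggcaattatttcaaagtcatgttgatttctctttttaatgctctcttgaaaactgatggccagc
Cyp4s3, chrX:15120184-15120384: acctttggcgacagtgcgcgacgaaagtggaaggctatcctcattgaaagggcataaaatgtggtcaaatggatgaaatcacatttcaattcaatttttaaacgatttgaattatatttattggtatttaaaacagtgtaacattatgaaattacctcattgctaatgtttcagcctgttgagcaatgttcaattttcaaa
laza, chr3L:22458711-22458911: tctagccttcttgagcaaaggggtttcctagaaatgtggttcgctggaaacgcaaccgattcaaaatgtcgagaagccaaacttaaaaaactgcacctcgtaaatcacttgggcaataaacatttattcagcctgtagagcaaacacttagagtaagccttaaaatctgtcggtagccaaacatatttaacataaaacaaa

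Purine-rich words in capitals lay within the windows at CG17544, Rh5, CG11629, zld and Hex-A, and the window at CG31668 held an A/T word. The windows at jp, at sp3 and at both tara summits held none of the 10 words, although their signals were among the strongest of the near-intergenic peaks. The windows at jp and sp3 share the letters ggaagtag in lower case. At zld, words were found 18 times in overlapping runs, spread over the window. At Cyp4s3 and laza, the weak pair, none was found.

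The strongest near-intergenic peak lay upstream of Psc (FBgn0005624), which encodes a core subunit of the Polycomb repressive complex PRC1. The peak spanned 2R 12984993 to 12985453 with its summit at 12985226, 4232 bp upstream of the Psc start site (offset -4232 bp). The protein-coding genes to either side were Psc and CG33798. An annotated noncoding gene also lies between them, and the gap around the summit free of any annotated gene was 4372 bp. The signal of the peak was 3261, and the matched peaks had ranks 46, 52 and 36 in replicates 1, 2 and 3. A further PRC1 gene, ph-d, also had a summit upstream, at X 2124101 (-815 bp, signal 1716, ranks 243, 312 and 354), in the stretch between ph-d and its neighbour ph-p. The next strongest after Psc, at 2R 22802962, lay between the ends of blw and CycB, the gene of the mitotic cyclin B, at 3341 bp from the CycB start site (signal 2675, ranks 129, 69 and 82). At each of these genes the peak was among the strongest 354 of every replicate list.

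Here the top N of a replicate list means its 7588 strongest peaks, as many as the IDR list holds. The rest of the 15 strongest near-intergenic peaks that were in the top N of every replicate lay at genes of varied function. CG17544 had a summit at -511 bp (signal 2456, ranks 109, 176 and 95) and jp, which encodes a junctophilin of membrane contact sites, one at -762 bp (2358, ranks 138, 117 and 120). The tara gene had 2, at -3149 bp (2055, ranks 278, 105 and 222) and at -1138 bp (1974, ranks 194, 184 and 256). CG31668 (1937), sp3 (1873), DNAlig3, which encodes a DNA ligase (1642), Rh5 (1602), CG33453 (1599), the septin gene pnut (1598), CG17896 (1473) and Boot (1385) followed. Further down the same order came zld, the gene of the pioneer factor Zelda (1357), and foxo, the transcription factor gene of insulin signalling (1329). The proapoptotic gene hid (1056) and the actin gene Act5C (1012) were also among the peaks above a signal of 1000. These last 4 were named after their values were seen.

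**Figure D1:**
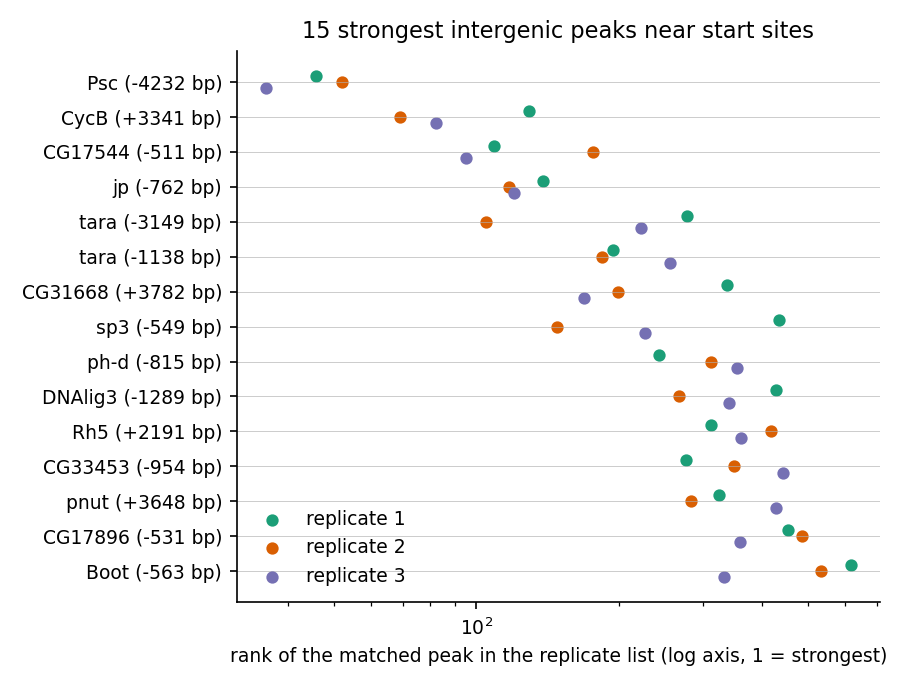
Rank of the matched peak in each replicate list (log axis, 1 is strongest) for the 15 strongest near-intergenic peaks, with the distance of the summit from the start site of the nearest gene in brackets, negative when upstream. Points are the 3 replicates, and they lie between rank 36 at Psc and rank 615 at Boot.

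The near-intergenic peaks were of middling strength. Their signal, the authors' score of the peak in the IDR list, had a lowest value of 160.5, a median of 270.1 and a highest of 3261. The other 6996 IDR peaks ran from 159.9 over a median of 296 to 6471. The −log10 of the q-value ran from 3.12 to 3.79, and the width of the intervals from 110 to 1151 bp with a median of 440 bp. Among the places of the genome, the median signal was 270.1 for near-intergenic peaks, 332 for the 3481 peaks within 500 bp of a start site, 271 for the 3104 genic peaks farther out, and 237 for the 411 intergenic peaks more than 5000 bp away. None of the 10 strongest IDR peaks was near-intergenic, 2 of the 100 strongest were, 17 of the 500 strongest (3.40%) and 43 of the 1000 strongest (4.30%). Among the 588 weakest, at ranks 7001 to 7588, the share was 10.5%.

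The replicates were used to test the standing of these peaks, with the replicate as the unit. The test was an exact two-sided sign-flip permutation test of the mean over 3 replicates. With 3 replicates its smallest possible p is 0.25, so no comparison in this study could pass a threshold of 0.05, and the size, the SD and the number of replicates with the same direction are given for each. The replicate lists entered the authors' IDR step, so recovery in them is not independent of being an IDR peak. They also share 1 further file, taken as the control, and the part of the overlap that stems from it was not tested.

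In every replicate, the near-intergenic peaks stood lower in the list than the other IDR peaks. The median rank of the matched peak, the nearest summit within 100 bp, was 4575, 4012 and 4449 in replicates 1, 2 and 3 for near-intergenic peaks, against 3774, 3621 and 3746 for the other IDR peaks. The difference was 632 ranks ± 214 (SD, n = 3 replicates; exact sign-flip permutation p = 0.25), with the same sign in 3 of 3 replicates. Against promoter peaks it was 1212 ± 300.3 ranks, and against genic peaks beyond 500 bp it was 205 ± 103 ranks. Against the intergenic peaks farther than 5000 bp it was -642 ± 154 ranks, so that the near-intergenic peaks stood between the genic and the far intergenic ones in each replicate (exact permutation p = 0.25 for each difference).

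Recovery differed by less than the spread between replicates. A top-N peak was matched to 76.0%, 84.1% and 82.8% of near-intergenic peaks in replicates 1, 2 and 3, against 81.6%, 81.4% and 86.6% of the other IDR peaks. The mean was 81.0% ± 4.34 for near-intergenic peaks and 83.2% ± 2.93 for the others, and the difference of -2.23 points ± 4.40 had no common sign (SD, n = 3; exact sign-flip permutation p = 0.5). A top-N summit was present in every replicate for 346 of the 592 near-intergenic peaks (58.4%, Wilson 95% interval 54.4 to 62.3), against 62.8% of all IDR peaks. It was present in exactly 2 replicates for 161, in exactly 1 for 78 and in none for 7. At any place in the replicate lists, a summit was found in all 3 replicates for 532 (89.9%), against 88.5% of the other IDR peaks. The only near-intergenic peak with no match anywhere was a weak one near CG13321 on 2R (summit 12958518, signal 197), which lies 213 bp from a stronger summit at 12958305 (signal 966).

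Recovery was also compared among peaks of like strength. The signal in the IDR list was close to the sum of the replicate signals, with a median ratio of 0.998 over the 532 near-intergenic peaks matched in all 3 replicates. Peaks with a strong signal therefore rank high in the replicates by construction, and the rank differences above are not independent of the lower median signal. With the IDR list cut into 4 equal parts by signal, 97 of 102 near-intergenic peaks (95.1%) of the strongest part were in every top N, against 97.8% of other peaks of that part. In the next parts the shares were 91.8% of 158 near-intergenic peaks against 88.8% of others, then 62.5% of 152 against 56.8%. In the weakest part they were 5.00% of 180 against 7.40%. Within the parts the mean replicate differences ran from -0.854 points ± 0.644 in the strongest part to 3.17 ± 3.66 in the third (SD, n = 3; exact permutation p = 0.25 to 1).

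**Figure D2:**
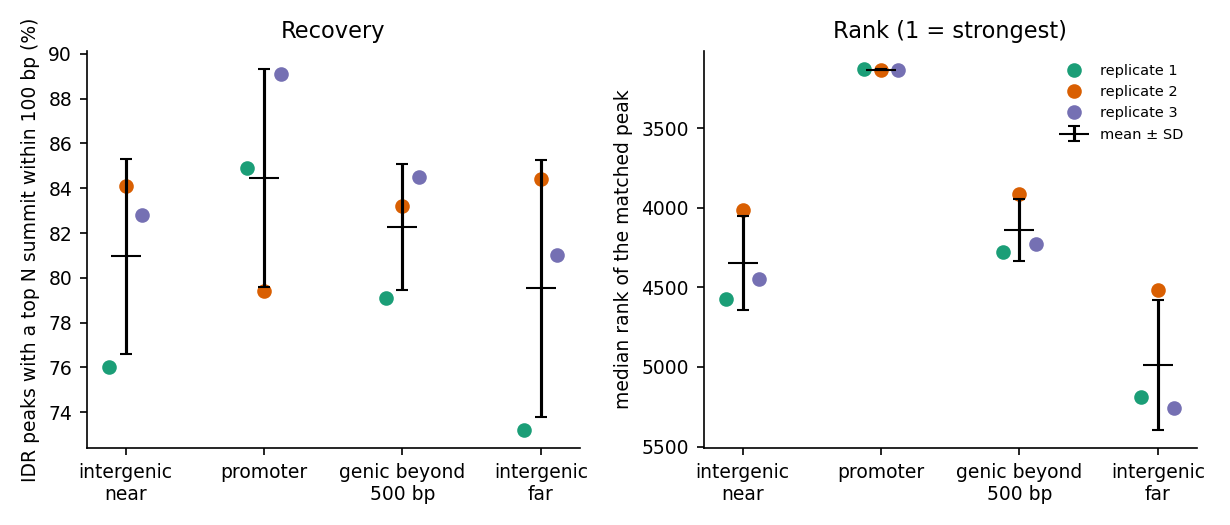
Left, share of IDR peaks matched to a top-N peak in each replicate; right, median rank of the matched peak in each replicate (1 is strongest, axis inverted). Points are replicates and bars are mean ± SD (n = 3) for near-intergenic, promoter, genic and far intergenic peaks; near-intergenic ranks (4012 to 4575) lie below promoter ranks in every replicate while the recovery shares overlap.

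Between replicates, the top-N peaks that met the same positional rule numbered 547, 625 and 553 in replicates 1, 2 and 3. Averaged over the 2 lists of a pair, replicates 1 and 2 shared 67.7% of them, replicates 1 and 3 shared 72.7%, and 72.3% were common to the pair of 2 and 3. The mean of 70.9% ± 2.80 for near-intergenic peaks compared with 72.6% ± 2.27 for other top-N peaks (SD, 3 pairs). Rank correlation of signal between matched peaks (Spearman's rho) was 0.785, 0.827 and 0.824 for near-intergenic peaks, against 0.840, 0.873 and 0.871 for other peaks. These are correlations across peaks, which share libraries and the control file and are not independent.

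Relative to their share of all bases, the stretches between genes near start sites held few strong peaks, which was not so for weak ones. All bases here include promoters, and 3481 of the 7588 IDR peaks were promoter peaks. A comparison with the rest of the sequence outside promoters was not made. Bases that meet the rule make up 9.76% of the main chromosomes (13068475 of 133880608 bases). Of the top-N peaks of replicates 1, 2 and 3, 7.21%, 8.24% and 7.29% met the rule, against 9.95%, 11.6% and 10.5% of the remaining peaks of each list. The difference was -3.13 points ± 0.337 and negative in 3 of 3 replicates (SD, n = 3; exact sign-flip permutation p = 0.25). As a ratio to the share of bases, the top N stood at 0.776 ± 0.0586 and the rest at 1.10 ± 0.0868. For the lists made from all replicates, the ratio was 0.799 for the IDR peaks and 1.15 for the 20961 pooled peaks that overlap no IDR peak, of which 2347 (11.2%) met the rule and are called weaker peaks below. Part of any such list may be peaks of background, since the authors named the replicate and pooled lists as peaks and background, and that part was not tested.

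The near-intergenic peaks thinned out with distance from the start site. Per Mb of bases that meet the rule, the top-N lists held 65.7 ± 3.84 peaks up to 1000 bp from the start site, 50.6 ± 3.46 from there to 2000 bp, 37.2 ± 2.28 to 3000 bp, 31.8 ± 4.57 to 4000 bp and 35.7 ± 4.31 to 5000 bp (SD, n = 3). The nearest bin exceeded the range beyond 2000 bp by 30.7 peaks per Mb ± 2.65, in 3 of 3 replicates (exact sign-flip permutation p = 0.25). The weaker peaks were also densest in the nearest bin, with 420 peaks in 2085753 bases, and numbered 189, 187, 168 and 146 per Mb in the bins that end at 2000, 3000, 4000 and 5000 bp. The median signal of the near-intergenic peaks was 286 for the 137 up to 1000 bp, 286 for the 180 from there to 2000 bp and 257 for the 275 farther out. The strongest peak of all, at Psc, lay in the bin farthest out.

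**Figure D3:**
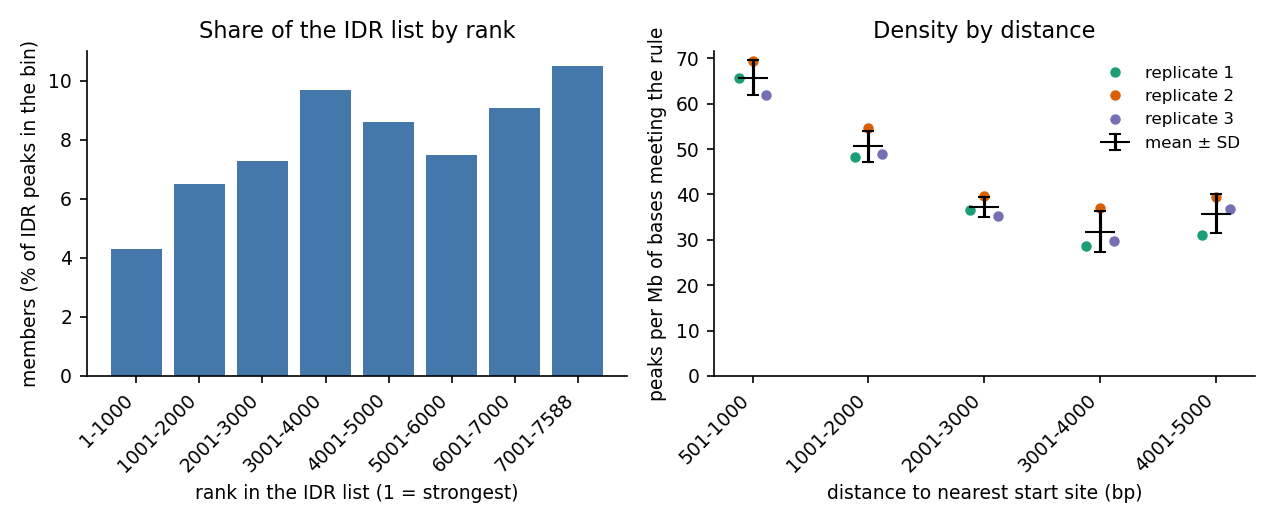
Left, near-intergenic peaks as a percentage of the IDR peaks in bins of rank (1 is strongest), from 4.30% in the first bin to 10.5% in the last. Right, top-N peaks meeting the rule per Mb of bases meeting it, by distance to the nearest start site in bp; points are the 3 replicates and bars are mean ± SD, with the highest values in the nearest bin.

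Just inside the lower limit were summits near nerfin-1 (502 bp, signal 174), Mkp3 (508 bp, 755) and Proc (510 bp, 249), and just outside were those near sff (497 bp, 186), Cad96Cb (497 bp, 233) and salr (494 bp, 265). Just inside the upper limit were summits near CG12290 (4967 bp, signal 213), CG13321 (4965 bp, 197) and CG15468 (4983 bp, with a signal between these), and just outside were those near CG4218 (5033 bp, 213), Tollo (5036 bp, 167) and CG11374 (5045 bp, 278).

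Most summits lay upstream of the nearest start site. This was so for 451 of the 592 near-intergenic peaks (76.2%), and 141 lay downstream, past the end of that gene. In the replicates the upstream share was 77.3%, 77.9% and 75.0%, against 69.3% of the bases that meet the rule (mean 76.8% ± 1.52, SD, n = 3; exact sign-flip permutation p = 0.25 for the difference). Among the 592 peaks the upstream share fell from 94.9% up to 1000 bp to 64.7% beyond 2000 bp. Peaks were also denser close to start sites, and the comparison with bases was not made within bins of distance. Stretches were then sorted by the protein-coding genes at their ends. Those between divergently transcribed genes held 227 peaks (38.3%), those between genes in tandem 281 (47.5%) and those between convergent genes 82 (13.9%). A further 2 peaks near CG9380 lay past the last protein-coding gene of an arm. By bases these kinds of stretch make up 31.1%, 52.3% and 16.4%, in the same order. The divergent share exceeded that of bases by 6.65 points ± 1.69 in the replicate lists, in 3 of 3 replicates (exact permutation p = 0.25), and it was 34.5% for the weaker peaks.

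The peaks lay on every main chromosome arm. There were 154 on 3L, 133 on 2L, 121 on 3R, 103 on 2R, 77 on X and 4 on chromosome 4. Arm 3L held 26.0% of near-intergenic peaks, against 20.8% of the bases that meet the rule, and was the densest with 56.7 peaks per Mb of such bases. Arm 3R held 20.4%, against 24.8% of such bases (37.4 per Mb), and the X 13.0%, against 15.1% (39.0 per Mb). The chromosome 4 peaks were near zfh2, a homeodomain and zinc finger gene (signal 664), fuss (493), Asator (288) and Sox102F (169). Annotated transposable elements held 5 peaks (0.845%), near ed, C1GalTA, del, Pms2 and ppk, whereas they cover 6.30% of the bases that meet the rule. In the replicates 0.798% ± 0.294 of top-N peaks meeting the rule lay in such elements, and 1.54% ± 0.135 of the remaining peaks meeting it (SD, n = 3). The labels do not say how reads from repeated sequence were treated, and the part of that in this count was not tested.

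Several genes were nearest to more than 1 of these peaks. The 592 peaks had 477 distinct nearest genes, 3.42% of the 13945 protein-coding genes. Of these genes 393 were nearest to 1 peak, 61 to 2 and 23 to 3 or more. Rh5, which encodes a blue-sensitive rhodopsin, had 5, at 2L 12006843 (signal 1219), 12007525 (521), 12010569 (1602), 12011300 (825) and 12012371 (289), all in the top N of every replicate. The tara gene, whose product works with trithorax group and cell cycle proteins, had 4 between 3R 16221860 and 16224513, with signals of 1049, 626, 2055 and 1974 along the arm. The summit with signal 626, at 3R 16222189, had no match in replicate 2. The chinmo gene, which encodes a BTB zinc finger protein of neuronal temporal identity, also had 4, with signals of 166, 314, 1181 and 534. CG13898, CG43131, CG43245 and NimC3, a gene of the Nimrod family of phagocytosis receptors, had 4 each. The other 16 genes with 3 were Alp6, CG1888, CG33453, CG33798, CG4218, CG5953, CG7484, CG7557, Cipc, Cyt-c1L, Gr93a, Ids, OdsH, RasGAP1, Ugt37C1 and chrb.

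Such runs were no more common than elsewhere in the IDR list. Another IDR summit lay within 2000 bp of 45.1% of near-intergenic peaks, against 48.6% of other IDR peaks, and in the replicates the difference was -3.50 points ± 4.41 without a common sign (SD, n = 3; exact permutation p = 0.5). A neighbouring IDR summit was within 500 bp for 73 near-intergenic peaks and within 1000 bp for 158. Peaks this close can share fragments, since the chromatin was sheared to 200 to 800 bp per the labels, so they are not independent sites. In all, 246 near-intergenic peaks lay between the same neighbouring protein-coding genes as at least 1 other. Noncoding genes can lie between such peaks, as they do between Psc and CG33798.

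Genes with a near-intergenic peak carried a promoter peak more often than genes near weaker peaks. The nearest gene had an IDR peak within 500 bp of a start site for 210 of the 592 (35.5%, Wilson 95% interval 31.7 to 39.4), against 23.6% for the weaker peaks and 26.9% of all protein-coding genes. In replicates 1, 2 and 3 the share was 38.4%, 33.9% and 34.7% for the top-N peaks, against 25.6%, 19.4% and 24.9% for the rest of the list. The difference was 12.4 points ± 2.41, in 3 of 3 replicates (SD, n = 3; exact sign-flip permutation p = 0.25), and the excess over all genes was 8.56 points ± 2.06. The median signal was 274 where the nearest gene had a promoter peak and 268 where it had none. Of the 210, 82 (39.0%) were stronger than that promoter peak. At Psc the intergenic peak had a signal of 3261 and the promoter peak one of 269, and at ph-d the values were 1716 and 211. At nej, the gene of the CBP acetyltransferase, the values were 1168 for the intergenic peak and 1046 for the promoter, and at Atf3 they were 805 and 1996.

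The gene lists were made by hand with earlier results of these data known and are not complete, so counts and orders hold within each list only. Developmental transcription factor genes were among the addresses more often than genes at large. Of 76 listed genes of developmental transcription factors outside the homeobox class, 17 (22.4%) were nearest to a near-intergenic peak, against 3.42% of all protein-coding genes, and they held 22 peaks. Since the room around a gene varies, the peaks were also counted per Mb of the rule-meeting bases for which the gene is nearest. Close summits at the same gene, as at chinmo, were counted separately, although they are not independent sites. By this measure the replicate lists held 92.4, 92.4 and 67.2 peaks per Mb at these genes (mean 84.0 ± 14.6), against 44.0 ± 3.32 for all genes (SD, n = 3). The weaker peaks stood at 202 per Mb at these genes and 179.6 at all genes. The strongest were at chinmo (signal 1181), slp2, a forkhead gene of embryonic segmentation (1031), bin, the FoxF gene of visceral mesoderm (837), and the Sox gene D (814), each in the top N of every replicate.

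Homeobox and Pax genes were nearest to a near-intergenic peak in 11 of 69 cases (15.9%), but per Mb they stood at 48.7 ± 8.95, less than 1 SD above all genes. The strongest within the list were at mirr, an Iroquois gene (signal 479), the LIM homeobox gene Lim1 (455), the segment polarity gene en (388) and the Pax gene toe (384). Of 58 signalling ligand and receptor genes, 5 (8.62%) had a near-intergenic peak, with 78.2 ± 9.78 peaks per Mb (SD, n = 3). Among them were fz, a Wnt and planar polarity receptor (873), the atypical cadherin genes ds (564) and ft (319), and the BMP ligand gene dpp (253), whose promoter peak was stronger (1057).

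In the remaining 9 lists at most 8 genes had a near-intergenic peak. Of 26 ecdysone pathway and nuclear receptor genes 1 had one, the steroid hydroxylase gene shd (signal 172), and of 34 neuronal and axon guidance genes 2, the Slit receptor gene robo2 (259) and the ELAV family gene fne (161, in the top N of 1 replicate). Their shares were 3.85% and 5.88%, against 3.42% of all genes. Axon guidance genes outside the list also had peaks, such as comm2 (444 and 299), unc-5 (417) and Sema5c (397 and 273), named after their values were seen. Cytoplasmic ribosomal protein genes, of which 80 of 92 had a promoter peak, had a near-intergenic peak in 1 case, RpS23 (349). Mitochondrial ribosomal protein genes had 1 of 73, mRpL21 (172), and respiratory chain genes 4 of 88 (4.55%), led by COX7AL2 (572) and ND-B14.7 (389). Per Mb, respiratory chain genes stood at 66.2 ± 23.4 and mitochondrial ribosomal protein genes, with 7472 such bases in all, at 89.2 ± 77.3 (SD, n = 3), against 44.0 for all genes. RFeSP, the Rieske protein gene of complex III, had 2 peaks (301 and 182) and is not in the list. None was nearest to any of 48 proteasome genes, which allows a share of up to 6.25%, or of 19 heat shock genes, which allows up to 15.8%. Cuticle protein genes had 5 of 117 (4.27%), led by Cpr76Ba (349.6), with 24.6 ± 6.15 peaks per Mb. Chemosensory receptor and odorant-binding genes had 8 of 230 (3.48%), led by Gr89a (496), with 29.2 ± 10.1 per Mb (SD, n = 3). Per Mb, cytoplasmic ribosomal protein genes stood at 24.3 ± 8.42, ecdysone and nuclear receptor genes at 41.5 ± 38.0 and neuronal genes at 33.4 in each replicate. These are counts, with no test over a list.

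Base composition at the summits was poor in G and C. In replicates 1, 2 and 3 the GC content within 100 bp of the summits of top-N peaks meeting the rule was 36.9%, 35.3% and 36.4%, against 41.5%, 41.1% and 41.5% in windows of the same size centred 1000 bp to either side. The difference was -5.18 points ± 0.616, in 3 of 3 replicates (SD, n = 3; exact sign-flip permutation p = 0.25). The other top-N peaks had 37.9% ± 0.804 at summits and 42.4% ± 0.236 in flanks, and the dip was deeper for near-intergenic peaks in each replicate (difference -0.677 ± 0.0610, 3 of 3 replicates, exact permutation p = 0.25). Flanking windows of either kind can reach into genes and promoters, and the effect of that on the differences was not tested. The weaker peaks had a GC content of 39.1% at the summit.

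Words were sought that did not depend on the near-intergenic peaks. The 10 words of 8 bases with the largest excess at summits over flanks, at least 2-fold, were chosen on 6838 IDR peaks that were not near-intergenic and lay more than 2000 bp from any of them. Either strand was counted, and overlapping matches were allowed. Of the 10, 7 held the letters GAAG and are called purine-rich words. They were AAGAAGAA (at 56 near-intergenic IDR summits), AGAAGAAG (52), GAAGAAGA (45), GAAGAAGC (21), AAGAAGCA (18), AAGAAGAG (19) and AGAAGCAG (16). The other 3, made of A and T alone, were ATATTTTA (55), TATTTTAA (54) and ATATTAAA (38). This grouping was made after the words were seen. The words overlap one another, so a window with one often holds several.

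These words recurred at near-intergenic summits. Any of the 10 was found at 31.1%, 29.6% and 29.3% of the summits meeting the rule in replicates 1, 2 and 3, against 16.2% ± 0.193 of flanks. The difference was 13.8 points ± 0.781, in 3 of 3 replicates (SD, n = 3; exact sign-flip permutation p = 0.25). Purine-rich words were at 80 of the 592 near-intergenic IDR summits (13.5%) and in 5.83% of their flanks. The A/T words were at 109 (18.4%) and in 11.7% of flanks. The commonest word, AAGAAGAA, was at 9.46% of summits, against 1.94% of flanks. Around the summits, purine-rich words were found in 34 peaks in each of the 50 bp bins next to the summit and in 4 to 15 peaks per bin elsewhere within 500 bp. A/T words were found in 39 peaks in each of the bins next to the summit and in 8 to 26 elsewhere. Summits were poorer in G and C than flanks, as given above, and the part of base composition in the A/T words was not tested. The 80 summits with a purine-rich word had a GC content of 41.3%, and the 512 without had 35.0%.

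Purine-rich words were rarer at near-intergenic than at other summits. The words were chosen on other IDR peaks, which favours those peaks in this comparison, so it is given as a description with no test. The excess of summits over flanks was 7.26 points ± 0.373 for near-intergenic peaks and 11.6 ± 0.646 for other top-N peaks, a difference of -4.38 ± 0.375 in 3 of 3 replicates (SD, n = 3). For the A/T words the difference of -0.908 ± 1.03 had no common sign. At the IDR summits, 13.5% of near-intergenic windows held a purine-rich word, against 19.6% of promoter, 19.5% of genic and 12.7% of far intergenic windows, and 6.39% of the windows of weaker peaks.

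The gap lay at the strong end of the lists, by a comparison that was made after the data were seen. Among ranks 1 to 1000 of the replicates, 30.0%, 22.9% and 30.2% of near-intergenic summits held a purine-rich word, against 47.6%, 40.2% and 43.5% of other summits (difference -16.1 points ± 2.44, SD, n = 3). Among the next 1000 ranks the shares were 10.3% ± 3.40 for near-intergenic and 22.0% ± 0.703 for other summits. Beyond rank 4000 they were 11.3% ± 0.833 and 12.1% ± 0.494, less than 1 SD of the difference apart. The strongest bin rests on few peaks, since 43 of the 1000 strongest IDR peaks were near-intergenic, of which 13 (30.2%) held a purine-rich word. In the same bin such words were at 47.1% of 680 promoter peaks, 37.1% of 264 genic peaks and 15.4% of 13 far intergenic peaks.

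**Figure D4:**
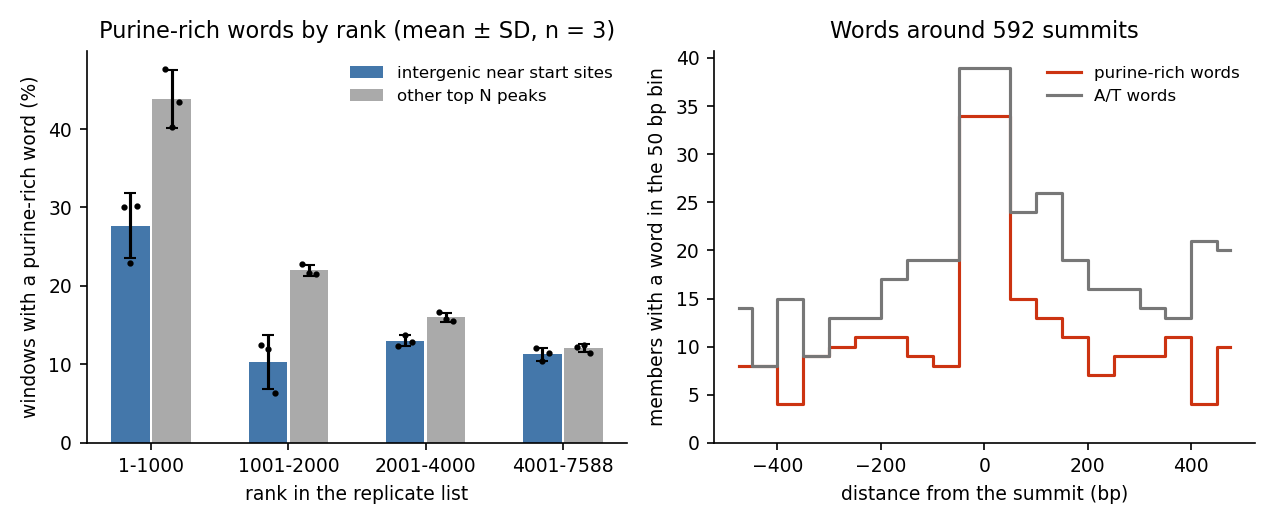
Left, share of summit windows with a purine-rich word by rank in the replicate list, for near-intergenic and other peaks (bars are means, whiskers SD, points the 3 replicates); the difference is -16.1 points at ranks 1 to 1000 and -0.763 points beyond rank 4000. Right, number of the 592 near-intergenic peaks with a purine-rich or A/T word per 50 bp bin by distance from the summit in bp, highest in the bins next to the summit.

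The purine-rich words were 1 of 10 patterns looked at by rank after the data were seen, and their gap was the widest in percentage points, though not as a ratio. In the 2000 strongest peaks of the replicates the purine-rich words were at 17.3% ± 1.72 of near-intergenic summits and 33.0% ± 2.18 of others. The letters GTGGCGC were at 7.69% ± 0.139 and 2.04% ± 0.0591, and in the IDR list at 10 of 108 near-intergenic summits and 38 of 1892 others of that rank. The letters GGAAGTAG, which the windows at jp and sp3 share, were at 3 of the 108 and 3 of the 1892. The windows at jp and sp3 are themselves among the 108, which raises this count. The GTGGCGC count likewise includes the windows at jp, sp3 and Rh5 shown above. TATCGATA was at 0 of the 108, which allows a share of up to 2.78%, and at 72 of the 1892 (3.81%). AGNNGGCGC (difference 3.31 points ± 1.10), TAATTA (4.45 ± 1.82) and TGCATAC (2.22 ± 1.52) were higher in near-intergenic windows, and AGATAAG (-1.49 ± 0.0921), GATAAG (-2.10 ± 0.473) and CAGGTA (-1.94 ± 0.214) were lower (SD, n = 3). Patterns picked this way are a description of these lists, with no test.

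Of 15 motifs known from other factors, those of 4 promoter-associated proteins had lower excesses over flanks at near-intergenic than at other summits. So had further motifs given below, and lower values were not particular to promoter-associated proteins. The DRE, TATCGATA, bound by DREF, was at 6 of 592 near-intergenic summits (1.01%) and 2.76% of other IDR summits, and its excess over flanks was 0.167 points ± 0.132 against 2.13 ± 0.404. CGATA, a shorter motif bound by BEAF-32 and contained in the DRE, was at 111 near-intergenic summits (18.8%) and 26.1% of other IDR summits. It was lower at near-intergenic summits than in their flanks (-2.71 ± 0.997 points) and higher at other summits (4.33 ± 1.13). GGTCACAC, part of the motif of M1BP, differed from flanks by 0.446 ± 0.401 against 1.41 ± 0.216, and GAGAGAG, bound by GAGA factor and CLAMP, by 1.03 ± 0.319 against 3.44 ± 1.07. For these 4 motifs the near-intergenic value was the lower one in 3 of 3 replicates (SD, n = 3; exact permutation p = 0.25 each). The other peaks include promoter peaks, where these motifs were commonest. The DRE was at 5.17% of promoter, 0.387% of genic and 0.243% of far intergenic IDR summits. In that order GGTCACAC was at 3.45%, 0.354% and 0%, against 0.507% of near-intergenic summits. Near-intergenic shares of both, on 6 and 3 peaks, thus exceeded the genic and far intergenic ones. CGATA was at 32.3%, 20.2% and 18.5%, and GAGAGAG at 8.10%, 7.12% and 4.14%, against 4.73% of near-intergenic summits.

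Over the whole lists, the motifs of Zelda and GATA factors went the other way by small amounts. CAGGTAG, bound by the pioneer factor Zelda, was at 11 near-intergenic summits (1.86%) and 0.929% of other IDR summits, with excesses over flanks of 0.618 points ± 0.189 and -0.250 ± 0.112. AGATAAG, bound by GATA factors, was at 24 (4.05%) and 2.84%, with excesses of 1.78 ± 0.580 and 0.166 ± 0.0714. For both the near-intergenic excess was the higher one in 3 of 3 replicates (exact permutation p = 0.25, n = 3). Among the 2000 strongest peaks the share of AGATAAG was lower instead, at 1 of 108 near-intergenic IDR summits (0.926%) against 2.54% of others. The shorter CAGGTA was at 2 (1.85%) against 3.91%, and CAGGTAG itself was not compared with other peaks by rank. These are shares at summits without flanks, and they rest on very few peaks. TAATTA, the core bound by homeodomain proteins, was at 117 (19.8%) and 14.9%, and the excesses of 3.75 ± 1.43 and 2.80 ± 0.225 differed by less than their spread. TATAAA, the TATA box, had excesses of 11.4 ± 0.984 and 9.88 ± 1.38, again within the spread, and both of these motifs are poor in G and C like the summits themselves. GCCATT, bound by the Polycomb recruiter Pho, was at 48 near-intergenic summits (8.11%) and in 14.4% of their flanks, against 9.76% and 13.4% for other IDR peaks. The remaining 6 searches gave excesses at near-intergenic summits of -1.56 ± 0.731 for GTGTGTGT, -0.0247 ± 0.548 for CAGCTG, -1.10 ± 0.267 for CACGTG and 1.43 ± 0.928 for TGCATAC, the core of the Su(Hw) motif. They were 0.402 ± 0.0672 for AGNGGGCGC, the pattern searched for CTCF, and -2.60 ± 0.296 for TTCNNNGAA, the STAT consensus. The wider pattern AGNNGGCGC includes AGNGGGCGC and was looked at by rank only. Among the 2000 strongest peaks its share at summits was 3.31 points ± 1.10 higher for near-intergenic than for other peaks. At other peaks GTGTGTGT had an excess of 1.80 ± 0.797 and TTCNNNGAA one of -0.386 ± 0.259. Near-intergenic minus other excesses were negative in 3 of 3 replicates for GCCATT (-4.25 ± 0.423), GTGTGTGT (-3.36 ± 1.47), TTCNNNGAA (-2.21 ± 0.467) and CACGTG (-0.802 ± 0.325). They were positive in 3 of 3 for TGCATAC (1.01 ± 0.696) and AGNGGGCGC (0.127 ± 0.0842). A match of letters is not evidence of a bound factor.

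**Figure D5:**
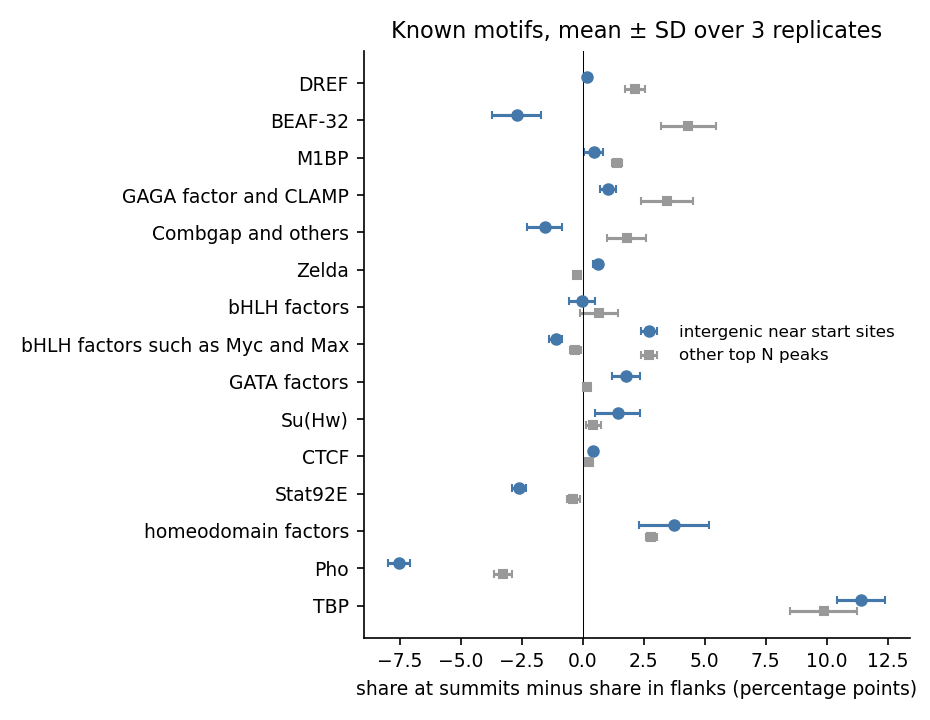
Share of summit windows minus share of flank windows holding each of 15 known motifs, labelled by the factor, in percentage points, as mean ± SD over 3 replicates for near-intergenic peaks (circles) and other top-N peaks (squares). A label stands only for the pattern of letters searched, and other forms of that factor's site were not counted. The motifs of DREF, BEAF-32, M1BP and GAGA factor lie to the left for near-intergenic peaks, as do those of Combgap, Myc and Max, Stat92E and Pho. Those of Zelda and GATA factors are among the motifs that lie to the right.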

How the data were processed

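The authors deposited a peak list for each of 3 ChIP replicates, a list from the replicates pooled, and the IDR list. Per the descriptions deposited beside the peak lists, a replicate list came from its own alignment and 1 further file shared by all, taken here as the control, and the IDR list came from the replicate and pooled lists. The coordinates are dm6 per the labels. No aligner, peak caller, IDR threshold or software version is named in the labels or files used here. The authors deposited a signal for each peak, of unstated scale, so comparison between replicates used rank, and they deposited a −log10 q-value as well. Each replicate list, like the pooled one, has 30000 peaks, of which 29999 in replicate 2 lie on the main chromosomes, and sequencing depth is unknown.

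Summits are printed 1-based. Genes and start sites came from Ensembl release 115, with transposable elements left out, and sequence from the RefSeq copy of the same assembly, with Python 3.11.15, numpy 2.4.6, pandas 2.3.3 and scipy 1.17.1. Summits of different lists were matched within 100 bp, and N was 7588, the length of the IDR list. Tests were exact two-sided sign-flip permutation tests over the 3 replicates, for which the smallest p is 0.25. Wilson 95% intervals and the limits that a count of 0 allows (3 counts) cover counting error only, and peaks and genes are not independent of one another. Windows for words and GC reach 100 bp to either side of the summit. The word and GC tests left out replicate peaks whose window overlapped that of a summit used to choose the words, so that 533, 621 and 552 near-intergenic peaks entered. The word-choice function was tested on simulated data, and the placement and permutation test functions on small made-up cases. The matching of summits was not tested in this way.

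Genes were named by rule: the 15 strongest peaks in the top N of every replicate, the peaks next to each limit, up to 4 genes of each of 12 lists, and genes nearest to 3 or more peaks. The peaks, the gene lists, the 15 motifs and the tests were chosen with earlier results of these data known. Alternatives were leaving out each replicate, the stronger part of the IDR list, other distances, annotations, matching limits, windows and flanks.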

Additional observations from a re-analysis of the deposited data

How the results depend on the processing

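Ranks in the replicates kept their direction under every alternative run. Leaving out 1 replicate gave rank differences of 547 to 752, recovery differences of -4.71 to -0.531 points, density ratios of 0.743 to 0.795, GC differences of -5.48 to -4.86 points and word excesses of 13.4 to 14.1 points. Recovery changed sign, to 0.487 points, when any place in the replicate lists counted, within its SD. The IDR list was also cut at its median signal, with N shortened to the same length. The top-N peaks of the replicates then gave a density ratio of 0.672, a GC difference of -5.84 and a word excess of 19.4 points. With peaks more than 1000 bp from a start site, the ratio was 0.704 and the word excess 14.8, and with start sites of all annotated genes the ratio was 0.713. Windows of 50 bp to either side of the summit gave a GC difference of -6.67 and a word excess of 8.25, flanks 500 bp away a word excess of 15.2, and flanks 2000 bp away a GC difference of -5.83 and a word excess of 17.0. Words were chosen anew under each setting, with 7 to 10 of the 10 shared with the words above. The shifts beyond the SD between replicates have causes that were not tested, except that shorter windows hold fewer words by construction. No paired analysis was possible because there was no second group of samples to pair, and the tests above take differences between peaks, or between summits and flanks, within each replicate. With no depth and no control ChIP in the lists, the weak end of the list cannot be told apart from background.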
